A study of Mus musculus with 14 samples.

Results

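The PPAR, ERR and PGC-1 regulators of cardiac energy metabolism were followed here across 4 groups of mouse hearts. They are 10 listed genes of the 24972 in the gene table: the receptors Ppara, Ppard, Pparg and Rxra, the coactivators Ppargc1a and Ppargc1b, the receptors Esrra and Esrrg, and the mitochondrial biogenesis factors Nrf1 and Tfam. The list names genes and has no threshold on measured values, and it was drawn up with earlier results of these data known. All 10 were found, and all 10 were among the 13211 genes abundant enough to test.

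Polyadenylated RNA was sequenced from the ventricles of male C57BL/6N mice, 9 to 10 weeks old at surgery, that had transverse aortic constriction (TAC, a narrowing of the aorta that loads the left ventricle with pressure) or a sham operation. After 2 weeks, 30 TAC mice with an ejection fraction of 40 to 60% and 10 sham mice with normal function were kept for treatment. Every animal then received an adeno-associated virus of type AAV2/9 by tail vein at 1e12 viral genomes in 100 ul, carrying JP2NT, the N-terminal fragment of the cardiomyocyte protein junctophilin-2, or green fluorescent protein (GFP). Hearts were collected 8 weeks after surgery as 4 TAC+JP2NT, 4 TAC+GFP, 3 Sham+JP2NT and 3 Sham+GFP libraries. No group without a virus was included, and the TAC groups hold hearts selected for a moderate loss of function. Whether the libraries of a group came from separate mice is not given, so the spread between libraries may be partly technical.

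PPARs are nuclear receptors activated by fatty acids, and they bind DNA as pairs with a retinoid X receptor such as RXRα. ERRα and ERRγ are orphan receptors that bind genes of the citric acid cycle, the respiratory chain and fatty acid oxidation, and in the heart they share many targets with the PPARs. PGC-1α and PGC-1β bind these receptors as coactivators, and together with nuclear respiratory factor 1 (NRF1), which activates Tfam among other genes, they promote the formation of mitochondria.

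The libraries held 8650188 to 14460617 estimated gene-assigned reads. Replicates 1 and 2 of Sham+JP2NT were nearly identical: for genes of at least 50 reads, their observed variance was 1.33 times that of counting alone. In the other 17 pairs of libraries this ratio was 2.45 to 29.9. The 2 near-identical libraries were averaged and counted as 1 sample, which leaves n = 2 in Sham+JP2NT. On the first principal component, which held 50.2% of the variance, TAC+JP2NT replicate 4 lay at -5.6, apart from the other TAC+JP2NT libraries (20.1 to 24.1), from TAC+GFP (32.1 to 42.9) and from the shams (-42.0 to -38.9). Markers of cardiomyocytes were abundant throughout: the summed normalised value of 12 such genes was 779763 to 978407 in TAC+JP2NT libraries and 721390 to 843628 in TAC+GFP, against 1186880 to 1195790 in Sham+JP2NT and 1183010 to 1228750 in Sham+GFP. That sum is weighted to abundant genes, with Myh6 alone at 496381 in the mean of Sham+JP2NT replicates 1 and 2. Relative to Sham+GFP, the mean log2 value of the 12 genes was -0.35 to -0.15 in TAC+JP2NT libraries and -0.39 to -0.19 in TAC+GFP. Of these 12 genes 6 fell and 1 rose in TAC+GFP against Sham+GFP, while 6 of 10 fibroblast markers rose and 1 fell. Of 9 smooth muscle and pericyte markers 6 fell and 0 rose, of 9 endothelial markers 4 fell and 1 rose, of 10 macrophage markers 2 fell and 0 rose, and of 4 tested erythroid markers 3 rose and 0 fell. Of all genes tested 25.2% fell and 23.1% rose in that comparison. The count of macrophage markers is not above those shares, and all of these lists are short. In bulk ventricle, fewer cells of a type and less RNA per cell cannot be told apart, and the part of cell composition in the results that follow was not tested.

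The levels of the regulators are compared per kilobase of exon, as normalised values (all libraries scaled jointly) divided by the union of annotated exon lengths. In Sham+GFP hearts Esrra had the highest level per kilobase, 478 ± 33.4 (SD, n = 3), followed by Ppara at 333 ± 6.59. Rxra at 243 ± 14.2 and Ppargc1b at 242 ± 10.8 lay within each other's spread, and Ppargc1a at 203 ± 20.4 came next. Tfam was at 142 ± 12.8, Esrrg at 76.8 ± 2.40, and Ppard at 53.9 ± 2.85 and Pparg at 49.9 ± 4.0 did not differ beyond their spread. Nrf1 was lowest at 15.4 ± 1.51. In TAC+GFP hearts Esrra at 323 ± 17.9 and Ppara at 291 ± 57.5 (SD, n = 4) were within each other's spread, Ppargc1a followed at 197 ± 29.8, and Rxra at 139 ± 9.95, Tfam at 118 ± 9.24 and Ppargc1b at 112 ± 23.8 came after it. Ppargc1b thus stood above Ppargc1a per kilobase in Sham+GFP hearts and below it in TAC+GFP hearts. The order in Sham+GFP rests on the exon unions, 3990 bases for Ppargc1b and 6592 for Ppargc1a. Before that division Ppargc1b was the lower in Sham+GFP, at 964 ± 43.3 against 1339.9 ± 134 (SD, n = 3). Which annotated exons were expressed was not tested.

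**Figure D1:**
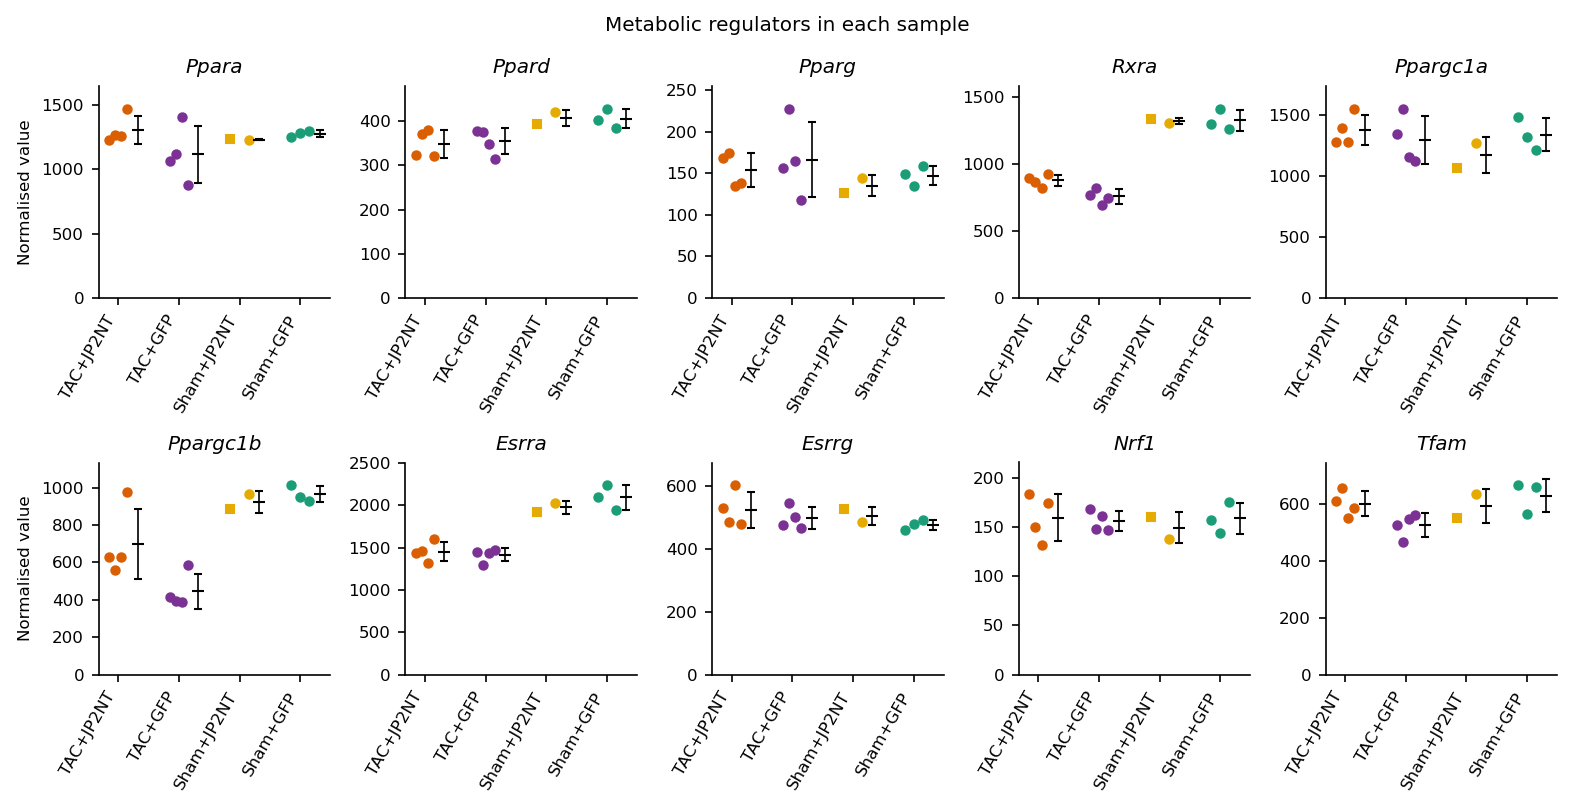
Normalised value (vertical axis, from 0) of each of the 10 regulators in every sample of the 4 groups; points are samples, the square in Sham+JP2NT is the mean of replicates 1 and 2, and the bar beside each group is the mean with its SD (n = 4, 4, 2 and 3). Ppargc1b, Rxra and Esrra lie lower in TAC+GFP than in Sham+GFP without overlap, the Nrf1 values overlap between all groups, and a Ppargc1b value of 978 stands above the other TAC+JP2NT samples.

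The first comparison asks how pressure overload altered the regulators under the control virus. In TAC+GFP hearts 4 of the 10 fell against Sham+GFP and 0 rose: Ppargc1b, Rxra, Esrra and Tfam (limma, adjusted p under 0.05 over all genes tested). Among all 13211 genes 25.2% fell and 23.1% rose, 48.3% in all. The members' median log2 fold change was -0.20, where the median of all genes tested was -0.01. At an unadjusted p under 0.05 there were 5 members and 54.8% of all genes. For 5 members the groups did not overlap, against 53.2% of all genes tested.

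PGC-1β, the coactivator encoded by Ppargc1b (chromosome 18 from 61298136 to 61400431, minus strand, mm10, GENCODE vM21 annotation), showed the largest decrease of the 10. Its normalised value was 413, 394, 388 and 586 in TAC+GFP libraries 1 to 4, against 1013, 951 and 929 in Sham+GFP libraries 1 to 3. Each TAC+GFP library lay below each Sham+GFP library, with replicate 4 the highest of its group. The means were 445 ± 94.7 (SD, n = 4) and 964 ± 43.3 (SD, n = 3), a 2.19-fold lower level (log2 fold change -1.13, 95% interval -1.49 to -0.78; limma adjusted p = 7.77e-05; exact permutation p = 0.0286, two-sided and the lowest possible over 35 splits).

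PGC-1α, the coactivator encoded by Ppargc1a (chromosome 5 from 51454250 to 51567726, minus strand) and the better known regulator of mitochondrial biogenesis, did not pass the test. It was at 1345, 1553, 1158 and 1128 in TAC+GFP, against 1482, 1322 and 1215 in Sham+GFP, and the groups overlapped over most of their range. The log2 fold change was -0.06, with a 95% interval of -0.30 to 0.18 (limma adjusted p = 0.707). The related coactivator gene Pprc1 was at 272 ± 26.2 (SD, n = 4) in TAC+GFP and 224 ± 31.1 (SD, n = 3) in Sham+GFP and did not pass the test either (log2 fold change 0.28, adjusted p = 0.0817). It was called without Sham+GFP replicate 1 (log2 fold change 0.38, adjusted p = 0.0424).

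Among the ERR genes, Esrra (chromosome 19 from 6910977 to 6921813, minus strand), which encodes ERRα, fell 1.48-fold. It was at 1453, 1301, 1444 and 1472 in TAC+GFP, against 2102, 2239.7 and 1947 in Sham+GFP, and the groups did not overlap (log2 fold change -0.56, 95% interval -0.72 to -0.40; limma adjusted p = 3.22e-05; exact permutation p = 0.0286). The gene overlaps Trmt112, a methyltransferase cofactor gene on the other strand, and whether the counting used strand is not given in the sources used here. Trmt112 was at 261 ± 17.8 (SD, n = 4) in TAC+GFP and 285 ± 6.25 (SD, n = 3) in Sham+GFP (log2 fold change -0.13, adjusted p = 0.244). Esrrg (chromosome 1 from 187608791 to 188214885, plus strand), which encodes ERRγ, was at 478, 547, 502 and 466 in TAC+GFP, against 461, 478 and 491 in Sham+GFP, with overlapping groups (log2 fold change 0.06, 95% interval -0.12 to 0.25; adjusted p = 0.584). Esrrb, the third receptor of the family, fell 1.28-fold, to 509 ± 19.7 (SD, n = 4) in TAC+GFP against 650.2 ± 44.5 (SD, n = 3) in Sham+GFP (adjusted p = 0.0012).

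Rxra (chromosome 2 from 27676440 to 27762957, plus strand), which encodes the partner receptor RXRα, fell 1.75-fold. Its values were 769.9, 825, 694 and 744 in TAC+GFP, against 1302, 1413 and 1263 in Sham+GFP. The highest TAC+GFP value was below every Sham+GFP value, and Rxra had the lowest adjusted p of the 10 (log2 fold change -0.81, 95% interval -0.96 to -0.66; limma adjusted p = 1.09e-06; exact permutation p = 0.0286). Both other RXR genes fell as well. Rxrg was at 545 ± 76.4 (SD, n = 4) in TAC+GFP and 1091 ± 78.3 (SD, n = 3) in Sham+GFP (2.01-fold lower, adjusted p = 2.96e-05), and Rxrb at 491 ± 22.1 (SD, n = 4) and 646 ± 25.2 (SD, n = 3) in the same groups (1.31-fold lower, adjusted p = 0.0012).

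None of the PPAR genes was called in this comparison. Ppara (chromosome 15 from 85734983 to 85802819, plus strand), which encodes the main fatty acid receptor of the heart, was at 1066, 1119, 1409 and 876 in TAC+GFP, against 1249, 1285 and 1298 in Sham+GFP. Replicate 3 of TAC+GFP was above every sham library and the other TAC+GFP libraries were below them (log2 fold change -0.21, 95% interval -0.46 to 0.04; limma adjusted p = 0.144). Without that replicate the log2 fold change was -0.33 and passed the test (adjusted p = 0.00867, the lowest over the alternatives, which reached 0.402). Ppard (chromosome 17 from 28232700 to 28301474, plus strand), the broadly expressed PPARδ gene, was at 377, 376, 348 and 315 in TAC+GFP, against 403, 428 and 385 in Sham+GFP. Its groups did not overlap, and it did not pass the test (log2 fold change -0.20, 95% interval -0.39 to -0.0047; adjusted p = 0.0841; exact permutation p = 0.0857). Pparg (chromosome 6 from 115360951 to 115490399, plus strand), best known as the receptor of fat cell differentiation, ranged from 117 to 227 in TAC+GFP and from 135 to 158 in Sham+GFP (log2 fold change 0.14, 95% interval -0.23 to 0.51; adjusted p = 0.531).

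Of the mitochondrial biogenesis factors, Tfam (chromosome 10 from 71225464 to 71238280, minus strand), whose product packages and transcribes mitochondrial DNA, fell 1.20-fold. It was at 526, 467, 548 and 559.6 in TAC+GFP, against 665, 563 and 657 in Sham+GFP, without overlap but with its closest libraries nearly level (log2 fold change -0.26, 95% interval -0.45 to -0.06; limma adjusted p = 0.0286; exact permutation p = 0.0286). The call was lost without Sham+GFP replicate 1 (adjusted p = 0.115), Sham+GFP replicate 3 (adjusted p = 0.106) or TAC+GFP replicate 2 (adjusted p = 0.0865), and with equal library sums (adjusted p = 0.183) or TAC replicates 1 and 2 averaged (adjusted p = 0.0608). Over every alternative the adjusted p ran from 0.0153 to 0.183. Nrf1 (chromosome 6 from 30047988 to 30153458, plus strand) was at 147 to 168 in TAC+GFP and 144 to 175 in Sham+GFP (log2 fold change -0.02, 95% interval -0.28 to 0.24; adjusted p = 0.908). Nfe2l1, a different gene whose protein is also called NRF1, was at 8959 ± 471 (SD, n = 4) in TAC+GFP and 10403 ± 180.3 (SD, n = 3) in Sham+GFP (log2 fold change -0.22, adjusted p = 0.0411). That call was lost without each of Sham+GFP replicates 1, 2 and 3 and TAC+GFP replicates 1, 2 and 4 (adjusted p = 0.0631 to 0.108). It was also lost with values as deposited (adjusted p = 0.0552), equal library sums (adjusted p = 0.234), median-of-ratios factors (adjusted p = 0.0586), no filter (adjusted p = 0.0642) or TAC replicates 1 and 2 averaged (adjusted p = 0.0742).

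The promoters of these genes were read as 300 bases, 250 before and 50 after an annotated start, from RefSeq on build GRCm38.p6. Of the 10 regulators 9 were searched, with 16 promoters, and Ppargc1b was left out of the search. Both strands were searched for the ERR element TCAAGGTCA, the NRF1 site GCGCATGC, the receptor half-site AGGTCA, its direct repeat spaced by 1 base, the E-box CACGTG and the cyclic AMP response element TGACGTCA. The ERR element contains the half-site. Of all 32851 promoters in the table, 0.423% held the ERR element, 2.71% the NRF1 site, 16.3% the half-site and 0.0396% the direct repeat. The E-box was in 7.15% and the cyclic AMP response element in 1.79%. Shown are Esrra and Rxra, which fell in TAC+GFP, and Ppara and Ppargc1a, which were not called there, with matches in capitals. The Esrra promoter (chr19:6921759-6922058, minus strand) holds the NRF1 site on its reverse strand, starting at position -34 from the start site. The Ppara promoter (chr15:85735526-85735825, plus strand) holds the NRF1 site on both strands, at -31 and -29, as overlapping matches, and the share of G and C was 74.7% in it and 66.0% in the Esrra promoter, against a median of 52.7% over all promoters. The second Rxra promoter (chr2:27709042-27709341, plus strand) holds half-sites at -87 and -48, and the Ppargc1a promoter (chr5:51567676-51567975, minus strand) holds no match. Pparg is the other searched regulator with a match, with a half-site in 2 of its promoters. None of the 16 promoters searched held the ERR element, the direct repeat, the E-box or the cyclic AMP response element in this window.
Esrra: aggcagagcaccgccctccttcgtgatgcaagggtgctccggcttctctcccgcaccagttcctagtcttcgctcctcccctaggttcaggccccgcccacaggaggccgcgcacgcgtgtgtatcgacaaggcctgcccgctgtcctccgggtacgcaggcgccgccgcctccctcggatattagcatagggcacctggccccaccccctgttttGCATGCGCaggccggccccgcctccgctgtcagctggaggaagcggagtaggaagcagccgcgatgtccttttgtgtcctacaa
Ppara: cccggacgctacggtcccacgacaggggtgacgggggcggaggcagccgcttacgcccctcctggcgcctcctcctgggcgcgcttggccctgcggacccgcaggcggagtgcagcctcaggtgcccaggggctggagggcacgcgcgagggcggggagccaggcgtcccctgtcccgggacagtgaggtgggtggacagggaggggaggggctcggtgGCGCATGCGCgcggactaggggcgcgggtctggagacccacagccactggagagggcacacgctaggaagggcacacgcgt
Rxra, second promoter: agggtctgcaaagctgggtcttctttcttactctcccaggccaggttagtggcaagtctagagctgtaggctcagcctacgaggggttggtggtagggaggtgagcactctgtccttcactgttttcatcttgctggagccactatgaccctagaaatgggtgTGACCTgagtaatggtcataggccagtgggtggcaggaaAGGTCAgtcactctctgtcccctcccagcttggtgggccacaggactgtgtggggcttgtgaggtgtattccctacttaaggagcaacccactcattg
Ppargc1a: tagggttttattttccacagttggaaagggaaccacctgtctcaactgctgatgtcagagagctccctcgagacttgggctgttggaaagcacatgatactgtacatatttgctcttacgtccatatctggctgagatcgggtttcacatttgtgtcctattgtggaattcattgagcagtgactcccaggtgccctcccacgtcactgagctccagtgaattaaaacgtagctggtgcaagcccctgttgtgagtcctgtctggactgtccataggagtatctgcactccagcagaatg

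The second comparison asks what pressure overload altered under JP2NT. In TAC+JP2NT hearts 2 of the 10 regulators fell against Sham+JP2NT, Rxra and Esrra, and 0 rose, where 16.8% of the 13211 genes fell and 15.4% rose, 32.2% in all. The members' median log2 fold change was 0.03 and that of all genes -0.01, and 4 members did not overlap between the groups, against 49.6% of all genes. At an unadjusted p under 0.05 there were 4 members and 42.8% of all genes. Rxra was at 893, 869, 821 and 926 in TAC+JP2NT, against 1338 (the mean of replicates 1 and 2) and 1308 in Sham+JP2NT. Every TAC+JP2NT value lay below both sham values, a 1.51-fold decrease (log2 fold change -0.59, 95% interval -0.76 to -0.42; limma adjusted p = 0.000167). Esrra was at 1438, 1457, 1325 and 1602 in TAC+JP2NT, against 1923 (the mean of replicates 1 and 2) and 2031 in Sham+JP2NT, also without overlap and 1.36-fold lower (log2 fold change -0.44, adjusted p = 0.00156). With 4 samples against 2, the exact permutation test cannot go below p = 0.0667, which both genes reached. The count of all genes called, 4250, was 1933 without the mean of Sham+JP2NT replicates 1 and 2 and 1897 without Sham+JP2NT replicate 3, and both regulators were still called then.

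Ppargc1b did not pass the test under JP2NT. It was at 629.7, 559.5, 627 and 978 in TAC+JP2NT, against 884 (the mean of replicates 1 and 2) and 967 in Sham+JP2NT. Replicates 1 to 3 of TAC+JP2NT lay below both sham values and replicate 4 above them (log2 fold change -0.44, 95% interval -0.84 to -0.03; limma adjusted p = 0.0906). Without replicate 4, the library that stood apart on the first principal component, the TAC+JP2NT mean was 605 ± 39.7 (SD, n = 3) and the decrease was called (log2 fold change -0.61, adjusted p = 0.00389). It was called as well with all 14 libraries counted separately (adjusted p = 0.0487) and with the spread estimated per group (adjusted p = 0.0356). The adjusted p over every alternative was 6.78e-05 to 0.341.

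Ppargc1a was at 1284, 1396, 1284 and 1547 in TAC+JP2NT, against 1069 (the mean of replicates 1 and 2) and 1274 in Sham+JP2NT. Each TAC+JP2NT value was above both sham values, and the difference did not pass the test (log2 fold change 0.23, 95% interval -0.04 to 0.51; limma adjusted p = 0.177), although it did when libraries were scaled to equal sums (log2 fold change 0.36, adjusted p = 0.032). Tfam had a log2 fold change of 0.02 (95% interval -0.20 to 0.24), with 549.5 to 657 in TAC+JP2NT, against 551 to 634 in Sham+JP2NT. Ppara was at 1227 to 1472 in TAC+JP2NT, against 1229.9 to 1233 in Sham+JP2NT (log2 fold change 0.08, 95% interval -0.20 to 0.36). Ppard, whose groups did not overlap, was at 319.9 to 379 in TAC+JP2NT, against 394 to 420.3 in Sham+JP2NT (log2 fold change -0.23, adjusted p = 0.0991). For Pparg, Esrrg and Nrf1 the log2 fold changes were 0.18, 0.05 and 0.09 with overlapping groups, and none passed the test.

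**Figure D2:**
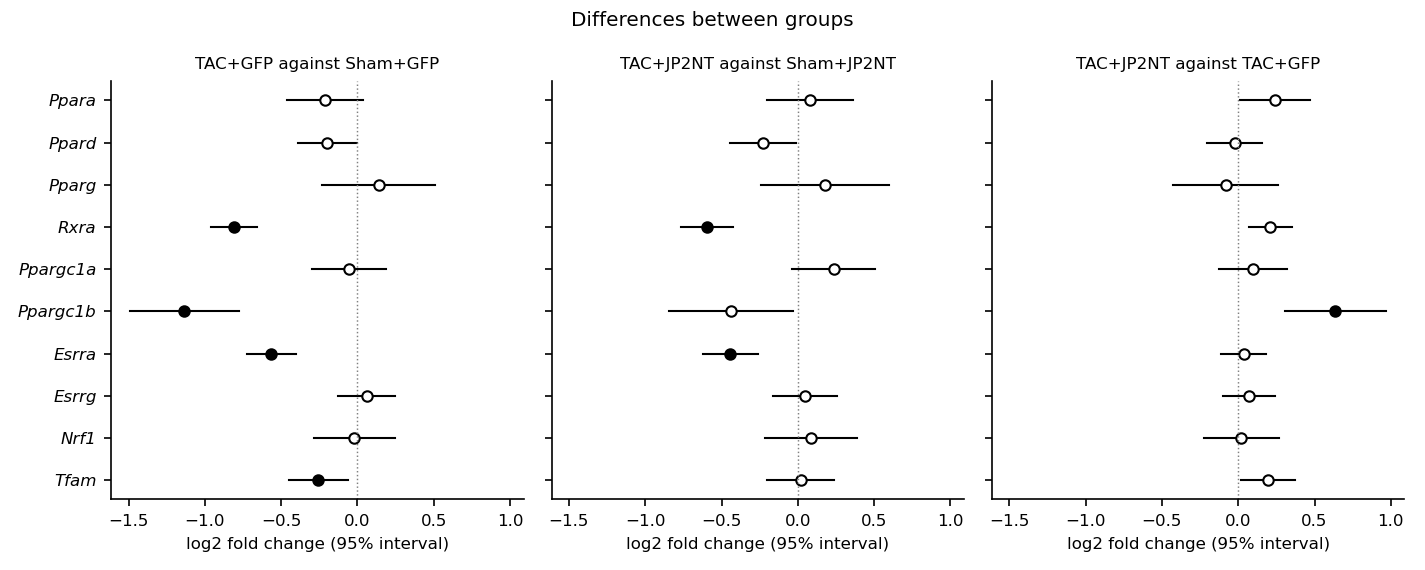
log2 fold change (horizontal axis) of each regulator with its 95% interval in TAC+GFP against Sham+GFP, TAC+JP2NT against Sham+JP2NT and TAC+JP2NT against TAC+GFP; filled points passed the test at an adjusted p of 0.05 over all genes tested. Filled points are Ppargc1b, Rxra, Esrra and Tfam on the left, Rxra and Esrra in the middle and Ppargc1b on the right; the intervals of Ppargc1b are among the widest.

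The third comparison sets the vectors against each other in overloaded hearts. Ppargc1b was the 1 regulator of 10 that was called, higher in TAC+JP2NT than in TAC+GFP, where 2.7% of the 13211 genes were higher, 3.5% lower and 6.21% differed in either direction. At an unadjusted p under 0.05 there were 4 members (Ppara, Rxra, Ppargc1b and Tfam) and 22.4% of all genes. For 0 members the groups did not overlap, against 10.7% of all genes. The count of all genes called was 820 and fell to 373 and 270 without TAC+GFP replicates 1 and 2, and to 515 and 450 without TAC+JP2NT replicates 1 and 2.

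Ppargc1b was at 629.7, 559.5, 627 and 978 in TAC+JP2NT, against 413, 394, 388 and 586 in TAC+GFP. Replicates 1, 3 and 4 of TAC+JP2NT were above every TAC+GFP library, and replicate 2 lay between TAC+GFP replicate 4 and the rest of its group. The means were 698 ± 189 (SD, n = 4) and 445 ± 94.7 (SD, n = 4), a 1.55-fold higher level (log2 fold change 0.64, 95% interval 0.30 to 0.97; limma adjusted p = 0.0272; exact permutation p = 0.0571 over 70 splits). The TAC+JP2NT mean was below the means of 925 ± 58.6 (SD, n = 2) in Sham+JP2NT and 964 ± 43.3 (SD, n = 3) in Sham+GFP.

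This call was kept without TAC+JP2NT replicate 4, the library with the highest value (log2 fold change 0.46, adjusted p = 0.039). It was lost without TAC+GFP replicate 1 (adjusted p = 0.0768), TAC+GFP replicate 2 (adjusted p = 0.0912) or TAC+GFP replicate 3 (adjusted p = 0.0531). It was also lost when both TAC groups alone were fitted (adjusted p = 0.105) and when TAC replicates 1 and 2 were averaged (adjusted p = 0.0923), and over every alternative the adjusted p lay between 0.000313 and 0.105. The interaction, which asks whether the effect of TAC on Ppargc1b differed between the vectors, was 0.70 on the log2 scale (95% interval 0.16 to 1.24) and did not pass the test over all genes (unadjusted p = 0.015, limma adjusted p = 0.315). No regulator was called for the interaction, where 0.0757% of all genes were (0.0378% in each direction), and Ppargc1b was the 1 regulator of 10 with an unadjusted p under 0.05, against 11.2% of all genes.

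Among the receptors, Rxra was at 893, 869, 821 and 926 in TAC+JP2NT, against 769.9, 825, 694 and 744 in TAC+GFP. A single TAC+JP2NT library, replicate 3, lay below the highest TAC+GFP value, and the difference did not pass the test (log2 fold change 0.21, 95% interval 0.07 to 0.35; limma adjusted p = 0.0692; exact permutation p = 0.0571). It was called without that replicate (log2 fold change 0.24, adjusted p = 0.0441) and when libraries were scaled to equal sums (log2 fold change 0.26, adjusted p = 0.0218). Ppara was at 1227, 1269, 1258 and 1472 in TAC+JP2NT, against 1066, 1119, 1409 and 876 in TAC+GFP (log2 fold change 0.24, 95% interval 0.01 to 0.47; adjusted p = 0.197), and it was called without TAC+GFP replicate 3 (log2 fold change 0.36, adjusted p = 0.0226). The spread of Ppara was 111 (SD) in TAC+JP2NT and 221 in TAC+GFP. Tfam was at 549.5 to 657 in TAC+JP2NT, against 467 to 559.6 in TAC+GFP (log2 fold change 0.19, 95% interval 0.02 to 0.37; adjusted p = 0.182).

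Esrra, which fell under TAC with either virus, had nearly the same mean in both TAC groups, 1455 ± 114 (SD, n = 4) in TAC+JP2NT and 1417 ± 78.6 (SD, n = 4) in TAC+GFP (log2 fold change 0.04, 95% interval -0.11 to 0.18). The interval for Ppargc1a was -0.13 to 0.32 around 0.10, that for Esrrg -0.10 to 0.24 around 0.07, that for Ppard -0.20 to 0.15 around -0.02 and that for Nrf1 -0.22 to 0.27 around 0.02, all log2 fold changes. Pparg was at 168, 174, 135 and 139 in TAC+JP2NT, against 156, 227, 165 and 117 in TAC+GFP (log2 fold change -0.08, 95% interval -0.43 to 0.26). Adipocyte markers varied between the same libraries: the summed value of 9 such genes was 36.3, 697, 55.5 and 517 in TAC+JP2NT libraries 1 to 4 and 91.8 to 324 in TAC+GFP, against 122 to 123 in Sham+JP2NT and 98.5 to 109 in Sham+GFP. Of the 9, 7 were abundant enough to test and 0 were called in any comparison, and Lep, Retn, Plin1 and Ucp1 were at 0 in some libraries. The highest and lowest Pparg values of TAC+JP2NT, in replicates 2 and 3, were in the libraries with the highest sum and with a low sum, whereas replicate 1, with the lowest sum, had the second highest Pparg value.

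Between the vectors in sham hearts, 0 of the 10 regulators were called, as were 0 of the 13211 genes (0%; limma, adjusted p under 0.05). At an unadjusted p under 0.05 there were 0 regulators and 561 genes, 4.25% of all. The log2 fold changes ran from -0.19 for Ppargc1a (95% interval -0.48 to 0.09) to 0.08 for Esrrg (95% interval -0.14 to 0.31), and that of Ppargc1b was -0.06 (95% interval -0.49 to 0.37). Ppargc1a was at 1069 (the mean of replicates 1 and 2) and 1274 in Sham+JP2NT, against 1482, 1322 and 1215 in Sham+GFP. Ppara was the 1 regulator without overlap, at 1229.9 to 1233 in Sham+JP2NT and 1249 to 1298 in Sham+GFP, where 29.8% of all genes did not overlap. Before averaging, Sham+JP2NT replicate 1 had a Ppara value of 1262, within the Sham+GFP range. With 2 samples against 3 the exact permutation test cannot go below p = 0.1.

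Set side by side over the 4 groups (mean normalised values with SD; n = 4, 4, 2 and 3), Ppargc1b was at 698 ± 189 in TAC+JP2NT and 445 ± 94.7 in TAC+GFP, against 925 ± 58.6 in Sham+JP2NT and 964 ± 43.3 in Sham+GFP. The Sham+GFP and Sham+JP2NT values overlapped, as did TAC+JP2NT with each of its neighbours in this order, and TAC+GFP was lowest. Rxra was at 877 ± 44.1 in TAC+JP2NT and 758 ± 54.3 in TAC+GFP, against 1323 ± 20.7 in Sham+JP2NT and 1326 ± 77.6 in Sham+GFP. The shams overlapped each other, the TAC groups overlapped each other at 1 library, and every TAC library was below every sham library. Esrra, at 1455 ± 114 in TAC+JP2NT and 1417 ± 78.6 in TAC+GFP, against 1977 ± 76.2 in Sham+JP2NT and 2096 ± 147 in Sham+GFP, had the same order of surgeries with overlap within each. Ppara, at 1307 ± 111 in TAC+JP2NT and 1117 ± 221 in TAC+GFP, against 1231 ± 1.90 in Sham+JP2NT and 1278 ± 25.3 in Sham+GFP, was highest in TAC+JP2NT and lowest in TAC+GFP, but the TAC+GFP range of 876 to 1409 spanned that of all shams.

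Tfam was at 601 ± 45 in TAC+JP2NT and 525 ± 41.0 in TAC+GFP, against 593 ± 59.0 in Sham+JP2NT and 628 ± 56.8 in Sham+GFP, where TAC+JP2NT overlapped every other group. Ppargc1a was at 1378 ± 125 in TAC+JP2NT and 1296 ± 196 in TAC+GFP, against 1172 ± 145 in Sham+JP2NT and 1339.9 ± 134 in Sham+GFP, and each group overlapped at least 2 others. Ppard was at 348 ± 31.6 in TAC+JP2NT and 354 ± 29.5 in TAC+GFP, against 407 ± 18.6 in Sham+JP2NT and 405 ± 21.4 in Sham+GFP, with each surgery's groups overlapping. Esrrg averaged 525 ± 56.8 in TAC+JP2NT and 498 ± 36.1 in TAC+GFP, against 505 ± 29.5 in Sham+JP2NT and 477 ± 14.9 in Sham+GFP. Its means lay closer together than the spread within TAC+JP2NT. Pparg was at 154 ± 20.0 in TAC+JP2NT and 166 ± 45.6 in TAC+GFP, against 135 ± 12.5 in Sham+JP2NT and 147 ± 11.8 in Sham+GFP, and Nrf1 at 159.7 ± 23.7 in TAC+JP2NT and 156 ± 10.3 in TAC+GFP, against 149 ± 15.7 in Sham+JP2NT and 159 ± 15.6 in Sham+GFP, with no order that exceeds the spread in either gene.

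Ratios between regulators within a library do not depend on its scaling, and are given as a description that reuses the values above. The ratio of Ppargc1b to Ppargc1a was 0.503 ± 0.0957 in TAC+JP2NT and 0.354 ± 0.116 in TAC+GFP, against 0.793 ± 0.0484 in Sham+JP2NT and 0.722 ± 0.0407 in Sham+GFP (SD; n = 4, 4, 2 and 3). Its range was 0.401 to 0.632 in TAC+JP2NT libraries and 0.254 to 0.520 in TAC+GFP libraries, which overlap each other and lie below every sham library. The ratio of Esrra to Esrrg was 2.81 ± 0.483 in TAC+JP2NT and 2.86 ± 0.345 in TAC+GFP, against 3.92 ± 0.380 in Sham+JP2NT and 4.40 ± 0.384 in Sham+GFP, again with no overlap between TAC and sham. The ratio of Rxra to Rxrb was 1.73 ± 0.136 in TAC+JP2NT and 1.54 ± 0.0746 in TAC+GFP, against 1.99 ± 0.0551 in Sham+JP2NT and 2.06 ± 0.134 in Sham+GFP. Its range of 1.45 to 1.62 in TAC+GFP lay below the 1.90 to 2.15 of Sham+GFP.

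**Figure D3:**
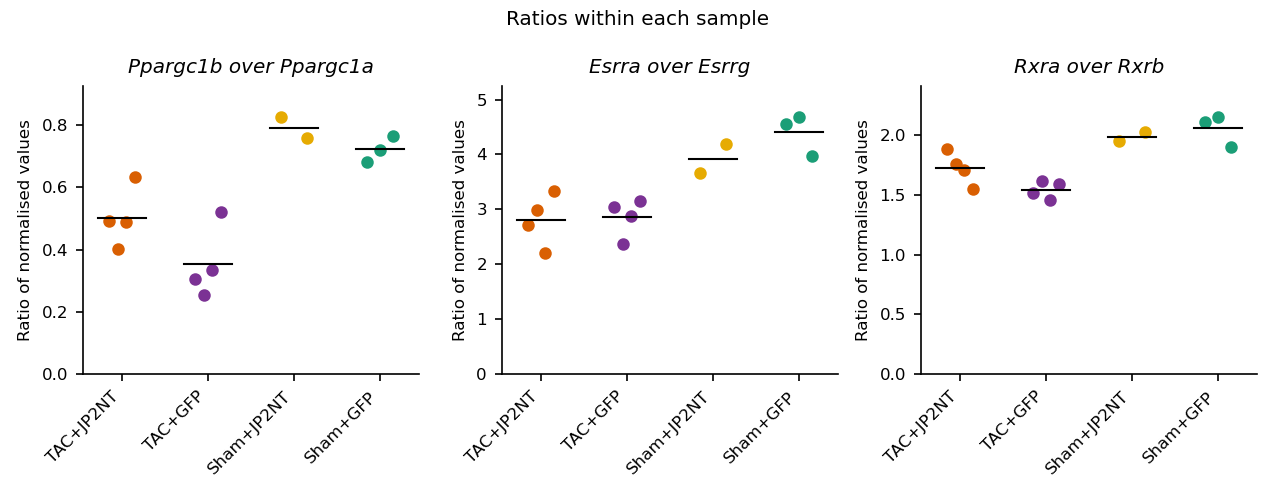
Ratio of normalised values within each sample (vertical axis, from 0) for Ppargc1b over Ppargc1a, Esrra over Esrrg and Rxra over Rxrb in the 4 groups; points are samples (1 of the Sham+JP2NT points is the mean of replicates 1 and 2) and lines are group means. In the first 2 panels every TAC sample lies below every sham sample, with TAC+JP2NT means of 0.503 and 2.81 and Sham+GFP means of 0.722 and 4.40.

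The regulators act with other receptors, cofactors and kinases, which were followed as lists chosen with earlier results of these data in view. Of 23 other receptors and partner factors 10 fell and 3 rose in TAC+GFP against Sham+GFP (median log2 fold change -0.19, where that of all genes was -0.01). Besides Rxrg, the largest changes among those called were in Thrb, a thyroid hormone receptor gene (1.70-fold lower), Mef2d, a muscle transcription factor gene (1.54-fold lower), and Nr1h3, which encodes the sterol receptor LXRα (1.52-fold lower). Of 18 coactivators and corepressors 6 fell and 4 rose, or 2 without Sham+GFP replicate 1 or 2, which is near the 25.2% that fell and 23.1% that rose among all genes. Lpin1, whose product lipin-1 works with PGC-1α and PPARα, was at 1953 ± 129 (SD, n = 4) in TAC+GFP and 3545 ± 322 (SD, n = 3) in Sham+GFP (1.81-fold lower; limma adjusted p = 2.26e-06). Prdm16, a cofactor gene known from brown fat, was 1.56-fold lower, and of the acetyltransferase genes Kat2a was 1.29-fold lower and Kat2b 1.49-fold higher.

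Of 12 tested kinases and energy sensors upstream of the coactivators, 4 rose and 5 fell in TAC+GFP against Sham+GFP, where 48.3% of all genes were called. The subunits of AMP-activated kinase moved in opposite directions. Prkab2, a β subunit, was at 1617, 1987, 944 and 1569.8 in TAC+GFP, against 516, 500.1 and 593 in Sham+GFP (2.76-fold higher, adjusted p = 3.69e-05), with no overlap. Prkag2, a γ subunit, was 1.52-fold higher (adjusted p = 2.26e-05), and Prkab1, the other β subunit, 1.58-fold lower (adjusted p = 0.000292). Mapk14, which encodes the p38α kinase, was 1.92-fold lower (adjusted p = 2.73e-06). In TAC+JP2NT against TAC+GFP, Prkag2 was 1.45-fold lower, at 475 ± 33.0 (SD, n = 4) against 687 ± 49.2 (SD, n = 4) (adjusted p = 0.00149). Prkab2 was 1.73-fold lower, at 866 ± 179 (SD, n = 4) against 1529 ± 432 (SD, n = 4) (adjusted p = 0.0216). The call on Prkab2 was lost without TAC+GFP replicate 1 (adjusted p = 0.0656) or 2 (adjusted p = 0.0766) and without TAC+JP2NT replicate 2 (adjusted p = 0.051). It was also lost when both TAC groups alone were fitted (adjusted p = 0.0855) and when TAC replicates 1 and 2 were averaged (adjusted p = 0.127).

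Of 18 tested genes that maintain and transcribe mitochondrial DNA, the setting in which TFAM works, 9 fell and 0 rose in TAC+GFP against Sham+GFP, or 1 rose without TAC+GFP replicate 4 (median log2 fold change -0.40). Over all genes 25.2% fell and 23.1% rose. The nuclease gene Mgme1 was at 142 ± 7.03 (SD, n = 4) in TAC+GFP and 280.3 ± 9.84 (SD, n = 3) in Sham+GFP (1.97-fold lower; limma adjusted p = 1.59e-06), and Twnk, which encodes the mitochondrial helicase, was 1.97-fold lower. Polg2, the accessory subunit of the mitochondrial polymerase, was 1.72-fold lower from a low level, a call lost without Sham+GFP replicate 2 (log2 fold change -0.71, adjusted p = 0.0572). Lrpprc, which stabilises mitochondrial messenger RNA, was 1.44-fold lower. Mgme1 was higher in TAC+JP2NT than in TAC+GFP, at 193 ± 11.5 (SD, n = 4) against 142 ± 7.03 (SD, n = 4) (1.36-fold; adjusted p = 0.00851, and adjusted p = 0.0503 when both TAC groups alone were fitted). The 15 listed genes of the mitochondrial genome were not analysed here.

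Of 34 tested genes known as PPAR targets, 26 fell and 0 rose in TAC+GFP against Sham+GFP (limma), with a median log2 fold change of -0.74, where 25.2% of all genes fell and their median was -0.01. Acot1, an acyl-CoA thioesterase gene, was at 46.4, 42.2, 15.2 and 43.5 in TAC+GFP, against 282, 286 and 332 in Sham+GFP (8.62-fold lower; limma adjusted p = 1.09e-05), and a close paralog may share its reads. The highest TAC+GFP value was far below the lowest Sham+GFP value. Ucp3, a mitochondrial carrier gene, was 5.54-fold lower, Angptl4, an inhibitor of lipoprotein lipase, 3.81-fold lower and Ehhadh, an enzyme of peroxisomal β-oxidation, 3.35-fold lower. Of 35 target genes of ERR and PGC-1, 29 fell and 0 rose (median -0.48), among them the muscle creatine kinase gene Ckm (1.98-fold lower), the citrate synthase gene Cs (1.74-fold lower), Slc25a12, an aspartate-glutamate carrier gene (1.68-fold lower), and Idh3a of the citric acid cycle (1.66-fold lower). With each library left out in turn, 25 to 28 PPAR targets and 26 to 29 ERR and PGC-1 targets fell, and without TAC+GFP replicate 4, 1 PPAR target rose.

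Of 23 genes listed as targets of NRF1 and TFAM, 10 fell and 4 rose in TAC+GFP against Sham+GFP (median log2 fold change -0.28). Over all genes 25.2% fell and 23.1% rose. The list holds nuclear genes, whereas TFAM acts on mitochondrial DNA, whose listed genes were not analysed. These counts are therefore no measure of TFAM activity. Hspd1, which encodes the chaperonin HSP60, was 1.89-fold lower, Alas1, the first enzyme of haem synthesis, 1.60-fold lower and Polrmt, the mitochondrial RNA polymerase, 1.43-fold lower, whereas Tomm20, a receptor of the outer membrane import machinery, was 1.70-fold higher. The 4 increases fell to 2 without any 1 of Sham+GFP replicates 2 and 3 and TAC+GFP replicates 2 and 3. Polrmt is also on the list of genes that maintain and transcribe mitochondrial DNA, so the counts of both lists are not independent.

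**Figure D4:**
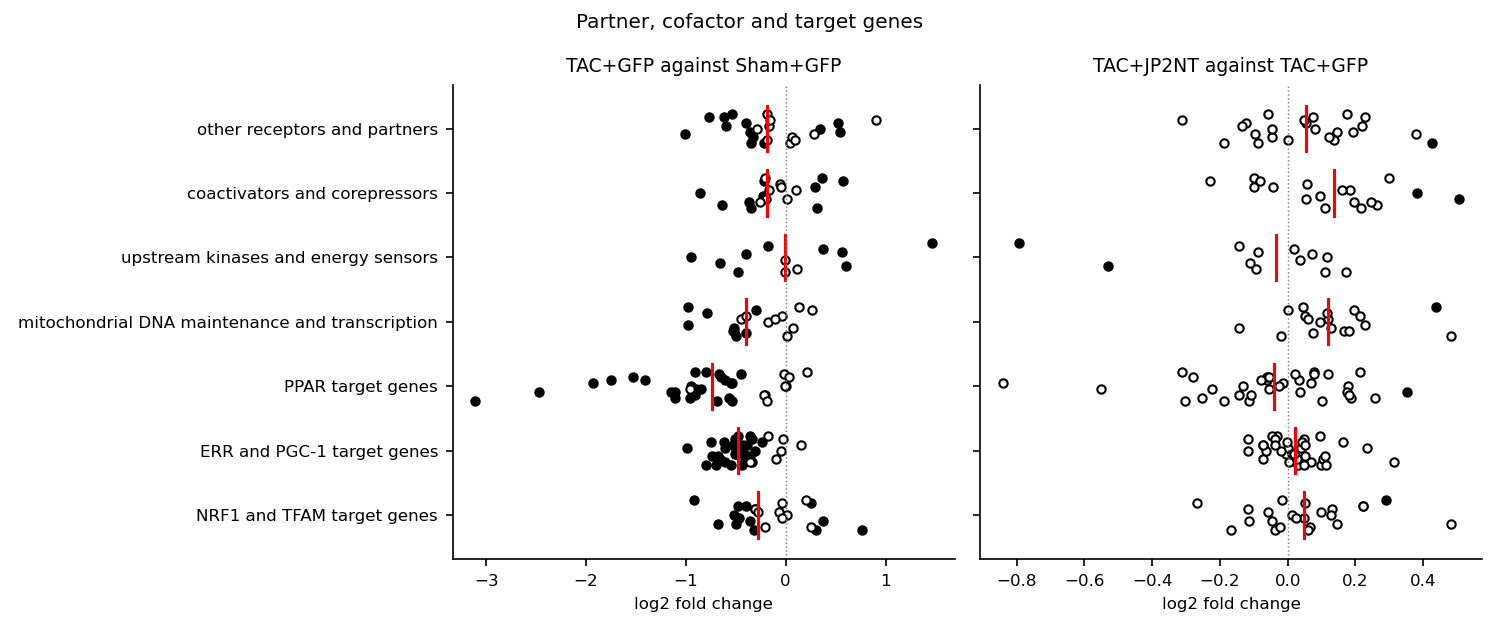
log2 fold change (horizontal axis) of each tested gene of the partner, cofactor, kinase, mitochondrial DNA and target lists in TAC+GFP against Sham+GFP and in TAC+JP2NT against TAC+GFP; filled points passed the test at an adjusted p of 0.05, open points did not, and red lines are list medians. The medians of the PPAR targets (-0.74) and the ERR and PGC-1 targets (-0.48) lie left of 0 on the left, and those of all lists lie between -0.04 and 0.14 on the right, where the axis spans a smaller range.

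Under JP2NT the PPAR targets and the ERR and PGC-1 targets were low as well. Of the 34 PPAR targets 28 fell and 0 rose in TAC+JP2NT against Sham+JP2NT (median -0.75). Of the 35 ERR and PGC-1 targets 27 fell and 0 rose (median -0.45). Of the 23 genes listed as targets of NRF1 and TFAM 5 fell and 4 rose (median -0.07). Among all genes tested 16.8% fell and 15.4% rose in that comparison. Acot1 was 8.42-fold, Ucp3 4.69-fold, Ehhadh 3.08-fold and Cs 1.61-fold lower there. Directly between the TAC groups, 1 of 34 PPAR targets was higher in TAC+JP2NT than in TAC+GFP, 0 were lower, and 0 of 35 ERR and PGC-1 targets were called (median log2 fold changes -0.04 and 0.02; limma). Among all genes tested 2.7% were higher and 3.5% lower there. The called gene was Cpt2, a carnitine palmitoyltransferase gene, at 2722 ± 266 (SD, n = 4) in TAC+JP2NT and 2139 ± 288 (SD, n = 4) in TAC+GFP (1.28-fold; adjusted p = 0.0337). The Cpt2 call was lost without TAC+GFP replicate 2 (adjusted p = 0.0727), TAC+JP2NT replicate 1 (adjusted p = 0.0502) or TAC+JP2NT replicate 4 (adjusted p = 0.0674). It was also lost with both TAC groups alone fitted (adjusted p = 0.119), TAC replicates 1 and 2 averaged (adjusted p = 0.0665), values as deposited (adjusted p = 0.0623) or the spread estimated per group (adjusted p = 0.051). Lower in TAC+JP2NT were 3 PPAR targets without TAC+GFP replicate 3, and 1 without TAC+GFP replicate 4 or TAC+JP2NT replicate 4. Without TAC+JP2NT replicate 3, 2 were higher.

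In the other lists, the genes called between the TAC groups besides Mgme1, Prkag2 and Prkab2 were Hspd1 (1.22-fold higher in TAC+JP2NT; limma adjusted p = 0.0214), Ncoa3, Lpin1 and Nr1d2. The Hspd1 call was lost without TAC+GFP replicate 1 (adjusted p = 0.0529) and with both TAC groups alone fitted (adjusted p = 0.0661). It was also lost with TAC replicates 1 and 2 averaged (adjusted p = 0.0651), values as deposited (adjusted p = 0.0509) or the spread estimated per group (adjusted p = 0.0563). Of 18 cofactor genes 2 were called as higher and 0 as lower, where 2.7% of all genes tested were higher and 3.5% lower. Without TAC+GFP replicate 3 the higher cofactor genes numbered 4. Ncoa3, a steroid receptor coactivator gene, was at 715 ± 81.2 (SD, n = 4) in TAC+JP2NT and 501 ± 26.8 (SD, n = 4) in TAC+GFP (1.42-fold; limma adjusted p = 0.00376). Lpin1 was at 2517, 2402, 2419 and 2843 in TAC+JP2NT, against 2081, 1999.6, 1955 and 1775 in TAC+GFP (1.30-fold; adjusted p = 0.0109), with no overlap, and below the 3218 to 3862 of Sham+GFP. Nr1d2, a receptor of the circadian clock, was 1.34-fold higher (adjusted p = 0.0399), a call lost without any 1 of TAC+GFP replicates 1 and 2 and TAC+JP2NT replicates 1, 2 and 4 (adjusted p = 0.0563 to 0.111). Alternatives of scaling, filter and model lost it too, among them both TAC groups alone (adjusted p = 0.0735) and TAC replicates 1 and 2 averaged (adjusted p = 0.171).

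Library by library, the mean log2 value of the PPAR targets relative to Sham+GFP was -1.0, -1.02, -0.84 and -0.69 in TAC+JP2NT, -0.63, -0.66, -1.13 and -0.91 in TAC+GFP, -0.04 to -0.01 in Sham+JP2NT and -0.01 to 0.01 in Sham+GFP. These means did not follow Ppara in the same way in both TAC groups. In TAC+JP2NT the library with the highest Ppara value, replicate 4 at 1472, had the highest target mean, and in TAC+GFP the library with the highest Ppara value, replicate 3 at 1409, had the lowest. For the ERR and PGC-1 targets it was -0.52 to -0.26 in TAC+JP2NT libraries and -0.51 to -0.40 in TAC+GFP, against -0.02 to -0.01 in Sham+JP2NT and -0.01 to 0.01 in Sham+GFP. The highest TAC+JP2NT value, -0.26, was that of replicate 4, which also had the highest Ppargc1b and Esrra values of its group, 978 and 1602. That library had the highest cardiomyocyte marker sum of its group, 978407, and the lowest macrophage marker sum, 3817, and their part in these values was not tested. In TAC+GFP the highest value, -0.40, was that of replicate 3, which had the lowest Ppargc1b value, 388, and replicate 4, with the highest Ppargc1b value, 586, was at -0.46. TAC+GFP replicate 3 had the highest cardiomyocyte marker sum of its group, 843628, and the highest macrophage marker sum, 6355. Their part was not tested here either.

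Across the 13 samples, described by Pearson correlations of log2 values that mix differences between groups with those within them and share each library's scaling, regulators that differ between TAC and sham must correlate for that reason. The correlation was 0.931 between Rxra and Esrra, 0.852 between Rxra and Ppargc1b and 0.823 between Ppargc1b and Esrra. After each group's mean was removed the same values were 0.265, 0.206 and 0.586. For Tfam, also called in TAC+GFP against Sham+GFP, the correlation was 0.468 with Rxra, 0.510 with Esrra and 0.626 with Ppargc1b, and within groups -0.514, 0.249 and 0.102. Ppargc1a stood at 0.004 with Ppargc1b and at -0.123 with Esrra, and Esrra and Esrrg at -0.507, or -0.823 within groups. Over all tested genes, the pattern most like that of Esrra was found in Fastk at 0.982, St6galnac6 at 0.982, Fitm2 at 0.98, H2-T24 at 0.98 and Sdr39u1 at 0.98. For Esrrg the closest were Cdk6 at 0.887, Zfp677 at 0.814, Miga1 at 0.791, Pm20d2 at 0.791 and D1Ertd622e at 0.786. For Ppara they were 2610044O15Rik8 at 0.909, Tmem181b-ps at 0.857, Jag1 at 0.854, Dpp7 at 0.852 and Abcb1b at 0.851. For Ppargc1a they were Prelid3b at 0.779, Tank at 0.752, Cep120 at 0.743, Slc39a14 at 0.74 and Jag2 at 0.727. All of these are correlations over 13 samples.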

How the data were processed

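Polyadenylated RNA of mouse ventricle was sequenced as stranded, paired-end libraries, per the labels' protocols. Read processing named FastQC 1.0.0, STAR 2.6.1a, Salmon and build mm10, per the submitters' processing notes. The values the authors deposited are a signal per gene: gene counts scaled by library, apparently separately for the GFP and the JP2NT libraries, and not whole numbers, so no count test was used. The worth of 1 read in each library was read from the spacing of low values, which gave 8650188 to 14460617 estimated reads per library and sets the precision of low values, for counting error only.

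The 14 libraries were rescaled jointly by the trimmed mean of log ratios (30% of ratios and 5% of mean levels trimmed), in R 4.3.3, giving the normalised values. Sham+JP2NT replicates 1 and 2 were averaged, which leaves 13 samples. The 13211 genes with values of 10 or more in 3 or more samples entered limma 3.58.1 on log2(value + 1) with 1 fit over the 4 groups, and p-values were adjusted by Benjamini and Hochberg over all of them. Fold changes on this scale understate the change of low genes, and exact permutation tests were two-sided on mean log2 values. The fit and the call rule were tried on simulated data in which few genes changed and each gene had the same spread in all groups. In the real data many genes were called and the spread differed between groups, so that trial does not cover them. TAC+GFP against Sham+GFP and TAC+JP2NT against TAC+GFP share the TAC+GFP libraries, and TAC+JP2NT against Sham+JP2NT shares the TAC+JP2NT libraries with the second of these.

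Named beside the 10 regulators were, from each list, the 4 called genes with the largest change in TAC+GFP against Sham+GFP, up to 4 called between the TAC groups, 5 related genes, and for 4 regulators the 5 genes most like them. The members and lists were chosen with earlier results of these data known. Cell type markers and alternatives, whose effect is given at the end, were set with them. Sequences came from RefSeq (GRCm38.p6), and the promoters of Ppargc1b were neither searched nor shown.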

Additional observations from a re-analysis of the deposited data

Results flagged for a closer look

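Among 20 groups of 4 libraries, 3 held a library far from the others by a gap test (Dixon's 95% criterion on the gap over the group's range), where chance gives about 1 in 20 groups. In TAC+JP2NT the Ppargc1b value of replicate 4, 978, lay above the other libraries by 0.832 of the range. In TAC+GFP the Ppargc1b value of replicate 4, 586, lay above the others by 0.875 of the range, and the Esrra value of replicate 2, 1301, below the others by 0.837 of the range. Without these Ppargc1b libraries its log2 fold change in TAC+JP2NT against TAC+GFP was 0.46 (TAC+JP2NT replicate 4 left out) and 0.77 (TAC+GFP replicate 4 left out). Without TAC+GFP replicate 2 the log2 fold change of Esrra in TAC+GFP against Sham+GFP was -0.52. TAC+JP2NT replicate 4 also stood apart from its group on the first principal component, and its part in these values was not tested beyond leaving it out.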

How the results depend on the processing

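Over 980 alternative values of the 50 regulator results, 898 kept their direction and side of the threshold, 11 passed it only there, 10 no longer passed it and 61 had the other sign, none of them called (lowest adjusted p 0.626). Of 767 values for the 40 results of named list genes, 725 kept direction and side and 40 no longer passed, with Nfe2l1, Nr1d2, Prkab2, Cpt2, Hspd1, Mgme1 and Polg2 the genes that lost calls. The number of genes called between the TAC groups was 1417 with values as deposited, 158 with TAC replicates 1 and 2 averaged, 431 with the spread estimated per group and 157 with both TAC groups alone. Between the shams it was 2 when they were fitted alone, and for the interaction 6 with no filter, 111 with 14 libraries, 4 with TAC replicates averaged and 77 with the spread per group. With each library left out, it ran from 5195 to 6283 in TAC+GFP against Sham+GFP, 1897 to 5015 in TAC+JP2NT against Sham+JP2NT, 270 to 1077 between the TAC groups, 0 to 2 between the shams and 0 to 55 for the interaction.

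Replicate numbers did not pair the samples: over 19 pairs of the same number, deviations from the group mean correlated at -0.169 to 0.074. With a replicate block over 14 libraries the interaction called 67 genes, and Ppargc1b was among them (0.72, limma adjusted p = 0.0115). The block also called Ppargc1b in TAC+JP2NT against Sham+JP2NT (-0.57) and Rxra between the TAC groups (0.21). Ppard at -0.0082 and Rxra at 0.0027 took the other sign between the shams with the block, as they did with 14 libraries.

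The other sign, always on a log2 fold change that was not called, appeared with values as deposited between the TAC groups for Esrra (-0.041), Esrrg (-0.0059) and Nrf1 (-0.056) and between the shams for Ppard (-0.071). With equal library sums it appeared in TAC+GFP against Sham+GFP for Ppargc1a (0.040) and Nrf1 (0.075), between the TAC groups for Ppard (0.025), between the shams for Rxra (0.021, and 0.0061 with median-of-ratios factors) and for the interaction of Esrrg (0.013). With TAC replicates averaged it appeared for Tfam (-0.0061) in TAC+JP2NT against Sham+JP2NT, for Ppard between the TAC groups (0.0098) and for the interactions of Ppard (0.0015) and Esrrg (0.014). The causes were not tested. With each library left out, the ranges that crossed 0 were, in TAC+GFP against Sham+GFP, -0.15 to 0.020 for Ppargc1a, -0.086 to 0.053 for Nrf1 and -0.023 to 0.29 for Pparg. In TAC+JP2NT against Sham+JP2NT they were -0.082 to 0.12 for Tfam, -0.020 to 0.11 for Esrrg and -0.019 to 0.19 for Nrf1. Between the TAC groups they were -0.079 to 0.015 for Ppard, -0.24 to 0.080 for Pparg, -0.011 to 0.081 for Esrra and -0.049 to 0.11 for Nrf1. Between the shams they were -0.036 to 0.045 for Rxra, -0.038 to 0.055 for Ppard, -0.12 to 0.0044 for Ppargc1b, -0.19 to 0.018 for Tfam and -0.19 to 0.021 for Nrf1. For the interaction they were -0.081 to 0.047 for Esrrg, -0.088 to 0.014 for Ppard and -0.11 to 0.20 for Pparg.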

Other observations

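Some values fell outside the comparisons. The summed normalised value of the 10 regulators was 7112 to 8222 in TAC+JP2NT libraries and 6410.4 to 6957 in TAC+GFP, against 8204 to 8631 in Sham+JP2NT and 8518 to 8983 in Sham+GFP. Erythroid markers summed to 7831 to 18742 in TAC+JP2NT libraries and 15959 to 22148 in TAC+GFP, against 8669 to 9966 in Sham+JP2NT and 6871 to 8487 in Sham+GFP. Chosen after their values were seen, the genes whose pattern over the 13 samples was most like that of Ppargc1b and Rxra were Gpr157 at a Pearson correlation of 0.986 and Map7d1 at 0.991. The ratio of Rxra to Ppara within a library was 0.674 ± 0.0429 in TAC+JP2NT and 0.700 ± 0.15 in TAC+GFP, against 1.07 ± 0.0149 in Sham+JP2NT and 1.04 ± 0.0633 in Sham+GFP (SD; n = 4, 4, 2 and 3).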
